A study of Homo sapiens with 9 samples.

Results

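This account follows 41 genes of amino acid supply and tRNA charging in SW1783, a human astrocytoma cell line, after treatment with 2 herbal extracts. The genes were chosen by symbol, with earlier results of these data known, so their shares beside those of all genes are a description. Each symbol was matched to its Ensembl identifier under its current or older name. All 41 were found among the 60675 genes of the table, 17 of them under an older name, and all 41 passed the filter on low counts that left 18356 genes for testing. By role, 9 genes make amino acids, 6 belong to the folate one-carbon cycle, 8 are transporters and 18 are cytosolic or shared aminoacyl-tRNA synthetases. RNA sequencing covered 3 vehicle libraries, treated with dimethyl sulfoxide for 24 h, and 6 libraries treated for 24 h with an ethanol extract of Poria Cocos, a fungus, or of Atractylodis Rhizoma, a plant rhizome. Each extract was given at 20, 100 and 500 µg/mL, with 1 library at each dose. The labels and the design text give different concentrations of dimethyl sulfoxide for the vehicle, so the concentration is not stated here. All libraries come from a single cell line, and every treated library carries the replicate number 2. The labels do not say whether the vehicle libraries came from separate cultures, so the p-values reflect only how far these libraries scatter, which may be technical.

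Cells short of an amino acid accumulate uncharged tRNA, which activates the kinase GCN2. GCN2 and the kinases of other stresses phosphorylate the initiation factor eIF2, which slows general translation while the transcription factor ATF4 is translated more. ATF4, paired with C/EBP proteins, binds the C/EBP-ATF response element and drives genes that make, import and charge amino acids. In tumour cells the serine branch of this programme also feeds the one-carbon cycle, which supplies nucleotide synthesis.

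Total estimated counts ranged from 40269708 to 48905602 per library, and the largest total belonged to Poria at 500 µg/mL. Mitochondrially encoded genes took 5.38% to 6.97% of counts. Of 8 astrocyte markers, GFAP, S100B, AQP4 and ALDH1L1 stayed under 1 CPM (counts scaled to the size of each library) in all 9 libraries, whereas VIM, SOX9, SLC1A3 and NES were measured at 5987 ± 164, 83.8 ± 0.899, 21.4 ± 0.509 and 6.31 ± 0.296 CPM in vehicle (mean ± SD, n = 3). Summed over 4 epithelial markers, levels were 239.1 to 245.8 CPM in vehicle and 127.0 to 229.8 CPM in the treated libraries, and the lowest sum came with KRT18 at 114 CPM in Atractylodis at 500 µg/mL. The summed levels of 5 myeloid markers were 175 to 183 CPM in vehicle and 133.0 to 164 CPM in treated libraries. The 5 neuronal markers summed to 172 to 175 CPM and 154 to 186 CPM, and the 4 endothelial markers to 28.9 to 31.0 CPM and 32.1 to 40.0 CPM. EPCAM, CDH1, AIF1, ITGAM, RBFOX3, STMN2, CDH5 and VWF were each under 1 CPM in every library. Most of each sum in vehicle came from a single gene: KRT18 at 222.8 CPM, CD68 at 166.5 CPM, TUBB3 at 116 CPM and KDR at 28.95 CPM. The part of these markers in the results was not tested.

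Because ATF4 is known to act through the response element, the promoters of the genes were searched for its core, TGATGNAA, on both strands, in RefSeq windows of the GRCh38.p14 build from 250 bases before to 50 bases after each start site. No other motif was searched. The core was present in 1217 of 27305 genes with a promoter entry (4.46%) and in 1270 of 35116 promoters (3.62%). Of the 33 genes described here that had an entry, 15 held it (45.5%): 2 of 6 synthesis genes, 1 of 4 one-carbon genes, 5 of 8 transporters and 7 of 15 synthetases. No entry was matched for PSPH, SHMT2, ALDH1L2, PYCR1, GPT2, LARS1, YARS1 and VARS1. The 9 windows below belong to genes that were lower with Poria than with Atractylodis at 500 µg/mL (values follow), each printed 5′ to 3′ on the gene's strand, with the match in capitals. TTNCATCA is the same core read on the opposite strand.
ASNS, chr7:97872458-97872487, minus strand: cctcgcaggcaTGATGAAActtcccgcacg
SLC1A4, chr2:64989381-64989410, plus strand: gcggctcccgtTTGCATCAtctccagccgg
SLC38A1, chr12:46266502-46266531, minus strand: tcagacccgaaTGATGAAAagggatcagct
SLC3A2, chr11:62881719-62881748, plus strand: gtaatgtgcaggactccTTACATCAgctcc
AARS1, chr16:70289675-70289704, minus strand: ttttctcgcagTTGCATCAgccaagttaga
IARS1, chr9:92293692-92293721, minus strand: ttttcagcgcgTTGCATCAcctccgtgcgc
GARS1, chr7:30594834-30594863, plus strand: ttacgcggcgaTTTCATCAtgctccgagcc
NARS1, chr18:57621804-57621833, minus strand: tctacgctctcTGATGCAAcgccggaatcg
GOT1, chr10:99430804-99430833, minus strand: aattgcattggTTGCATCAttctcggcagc
In wider context, the ASNS match lay in the 200 bases upstream of the start site (chr7:97872409-97872608, minus strand), shown because ASNS had the largest fold difference between the extracts among the 41 genes, alongside PSAT1.
ASNS upstream: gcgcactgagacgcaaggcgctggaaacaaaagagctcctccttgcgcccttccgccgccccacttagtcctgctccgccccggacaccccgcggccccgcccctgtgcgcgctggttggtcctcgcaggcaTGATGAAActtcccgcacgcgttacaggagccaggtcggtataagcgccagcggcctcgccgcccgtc
The first base of the match stood at -68 from the ASNS start site, at -7 for SLC1A4, -4 for SLC38A1, 38 for SLC3A2 and -187 for AARS1. PSAT1, PHGDH, WARS1, SARS1, MTHFD2, SLC7A5 and EPRS1 were also lower with Poria at 500 µg/mL and had an entry, but held no match. A match was also present in SLC7A1, SLC1A5, CARS1, MARS1, TARS1 and MTHFD1L, which were not called different at that dose. These are matches of letters, and binding was not measured.

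Slopes over the dose steps 0, 1, 2 and 3 (vehicle, 20, 100 and 500 µg/mL) were tested with edgeR's quasi-likelihood test, with p-values adjusted by Benjamini-Hochberg over all 18356 genes and a threshold of 0.05. With Poria, 1 of the 41 (LARS1) rose and 10 fell (PSAT1, SHMT2, PYCR1, GOT1, SLC7A5, SLC7A1, SLC1A4, AARS1, WARS1 and FARSA), where 9.16% of all genes rose and 11.6% fell. With Atractylodis, 10 rose (ASNS, PSAT1, ALDH1L2, SLC3A2, SLC38A1, SLC38A2, EPRS1, IARS1, LARS1 and NARS1) and 5 fell (PYCR1, SLC7A1, VARS1, KARS1 and FARSA), against 8.49% and 10.5% of all genes. The median slope of the 41 was -0.03 with Poria and 0.01 with Atractylodis, in log2 units per dose step, and 0.00 over all genes in both cases. Both slopes share the same vehicle libraries. The difference between the slopes passed the test in 8 genes, all with the lower slope in Poria, where 0.676% of all genes were called in that direction and 1.16% in either. All 8 calls ended when either library at 500 µg/mL was left out: without Poria at 500 µg/mL 0 genes were called by edgeR and 13 had an unadjusted p under 0.05, and without Atractylodis at 500 µg/mL the numbers were 0 and 8. Over every gene tested those fits also called 0. DESeq2 on all libraries also called 8. With dose in µg/mL in place of the dose step, the Poria slopes of PSAT1 and WARS1 and the Atractylodis slopes of ASNS, PSAT1, SLC3A2 and SLC38A1 kept their calls and the other slopes with either extract lost theirs, while the difference was lost for SLC1A4 and kept for the other 7 genes. Offsets for GC content and length ended the Poria calls of AARS1 and LARS1, the Atractylodis calls of LARS1, NARS1, PYCR1, SLC38A1, SLC38A2 and VARS1, and the calls of EPRS1, LARS1 and VARS1 in treated against vehicle libraries. As these are bulk samples, fewer cells of a kind and less RNA per cell cannot be told apart.

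**Figure D1:**
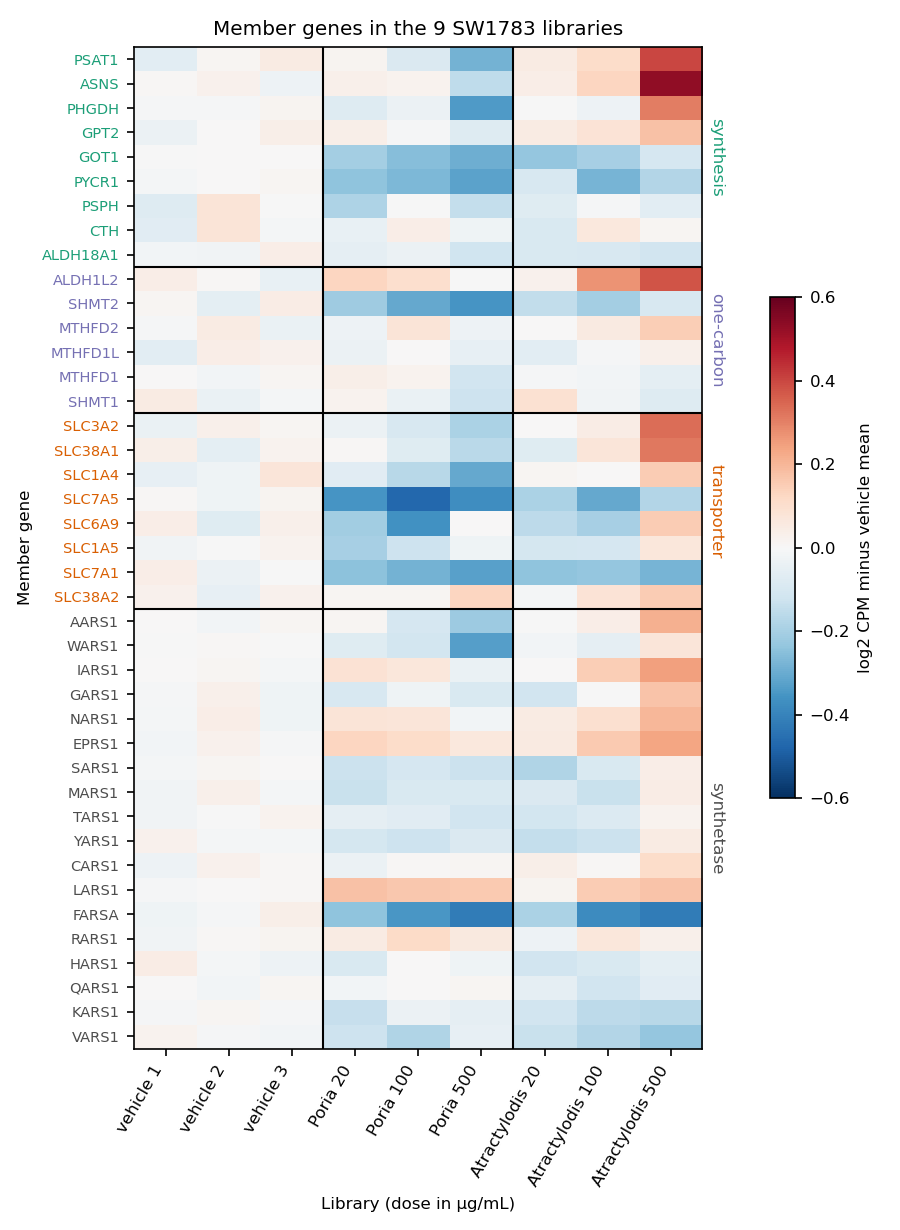
Each row is 1 of the 41 genes, grouped by role, and each column 1 of the 9 libraries; colour gives the log2 CPM minus the vehicle mean. The Poria 500 column has a median of -0.09 and the Atractylodis 500 column a median of 0.05. FARSA is the lowest gene in both columns, and ASNS the highest with Atractylodis.

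**Figure D2:**
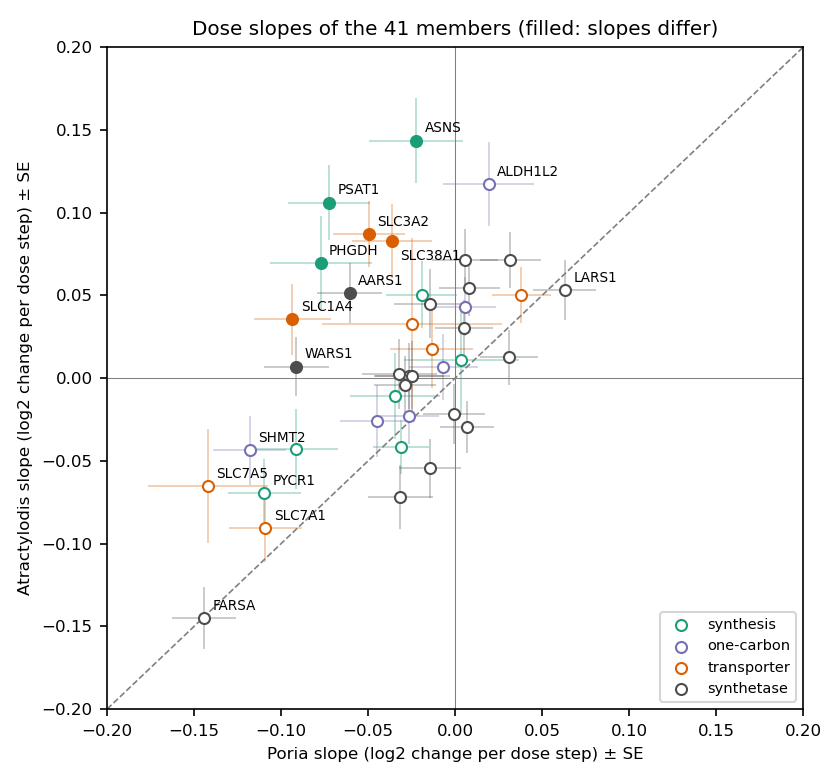
The Poria slope (x axis) is plotted against the Atractylodis slope (y axis), both in log2 change per dose step with SE bars, for the 41 genes coloured by role; the dashed line marks equal slopes. The 8 filled genes, whose slopes differ, lie above the line, and FARSA lies on it, at -0.14 and -0.15.

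Among the 9 enzymes of synthesis, ASNS, PSAT1 and PHGDH differed in slope between the extracts. ASNS (ENSG00000070669, chr7:97852118-97872542 on the minus strand, GENCODE 29), which makes asparagine from aspartate and glutamine, was at 59.3, 60.1 and 57.9 CPM in the vehicle libraries. It was at 60.4, 59.9 and 53.1 CPM with Poria at 20, 100 and 500 µg/mL and at 60.8, 64.7 and 85.5 CPM with Atractylodis at the same doses. The Atractylodis 500 library stood far above the other 8, and the Poria 500 library was the lowest of all. The ASNS slope was 0.14 ± 0.026 (SE) log2 per step with Atractylodis (edgeR adjusted p = 0.00225) and -0.02 ± 0.027 with Poria (adjusted p = 0.612), a difference of -0.17 ± 0.029 (adjusted p = 0.015).

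PSAT1 (ENSG00000135069), the aminotransferase of serine synthesis, parted in the same way. Its levels were 67.9, 71.6 and 73.3 CPM in vehicle, 71.7, 66.8 and 58.2 CPM across the Poria doses and 73.3, 76.5 and 93.7 CPM across the Atractylodis doses. Both libraries at 500 µg/mL fell outside the vehicle range, on opposite sides. PSAT1 fell with Poria (slope -0.07 ± 0.024, edgeR adjusted p = 0.0386) and rose with Atractylodis (0.11 ± 0.023, adjusted p = 0.00471), and the slopes differed by -0.18 ± 0.025 (adjusted p = 0.0038). The Poria call ended when the 500 µg/mL Poria library, vehicle replicate 2 or vehicle replicate 3 was left out, and the Atractylodis calls of both PSAT1 and ASNS ended without Atractylodis at 500 µg/mL.

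PHGDH (ENSG00000092621), the first enzyme of serine synthesis, was at 37.4, 37.4 and 38.1 CPM in vehicle. With Poria it measured 35.7, 36.7 and 29.7 CPM and with Atractylodis 37.5, 36.9 and 46.6 CPM at 20, 100 and 500 µg/mL. Only the top doses stood clear of the vehicle range by a wide margin, 1 below and 1 above. Neither slope passed alone (edgeR adjusted p = 0.075 and 0.101), while their difference did, at -0.15 ± 0.032 (adjusted p = 0.0345). That difference was also lost when any 1 vehicle library or Poria at 20 µg/mL was left out. PSPH, the phosphatase that completes the serine pathway, ranged from 23.3 to 26.5 CPM in treated libraries against 25.1 to 28 CPM in vehicle, and its slope difference of -0.02 did not pass (adjusted p = 0.782).

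PYCR1 and GOT1 were lower in the treated than in the vehicle libraries. PYCR1, the mitochondrial enzyme that completes proline synthesis, was at 87.9, 88.6 and 89.5 CPM in vehicle, 75, 73.6 and 71 CPM with Poria and 82.9, 73 and 78.5 CPM with Atractylodis. GOT1, the cytosolic aspartate aminotransferase, was at 44.7, 44.9 and 44.8 CPM in vehicle, 38.8, 37.5 and 36.6 CPM with Poria and 38.1, 39 and 41.8 CPM with Atractylodis. In both genes all 6 treated libraries lay below all 3 vehicle libraries, a pattern that 13.7% of all tested genes showed. Treated against vehicle, in a fit of 2 groups, the log2 difference was -0.23 ± 0.043 for PYCR1 (edgeR adjusted p = 0.000913) and -0.21 ± 0.044 for GOT1 (adjusted p = 0.00168). In this contrast 2 of the 41 genes were higher and 8 lower, where 12.0% and 13.3% of all genes were called. Taking both directions together, 24.4% of the 41 were called, near the 25.3% of all genes. The Atractylodis slope call of PYCR1 was lost without any 1 vehicle library or Atractylodis at 100 µg/mL.

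ALDH18A1, which makes the precursor of proline, was also below vehicle in all 6 treated libraries (119 to 126 against 127 to 133 CPM), but its difference of -0.09 missed the threshold (adjusted p = 0.0741). GPT2, the mitochondrial alanine aminotransferase, reached 32.4 CPM with Atractylodis at 500 µg/mL and 27.1 CPM with Poria, around a vehicle level of 28.6 ± 0.689 CPM (SD, n = 3). CTH, which makes cysteine from cystathionine, stayed between 6.82 and 7.59 CPM in the treated libraries, inside or next to its vehicle range of 6.94 to 7.69 CPM.

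Of the 6 one-carbon genes, SHMT2 was the one called with Poria and ALDH1L2 the one called with Atractylodis. SHMT2, which takes the one-carbon unit from serine in mitochondria, was at 126, 120.2 and 129 CPM in vehicle, 108, 101 and 98 CPM with Poria and 113, 108 and 117 CPM with Atractylodis. All treated libraries lay below vehicle, and the Poria values fell further at each dose (slope -0.12 ± 0.021, edgeR adjusted p = 0.000942). The Atractylodis slope of -0.04 did not pass (adjusted p = 0.156), nor did the difference between the slopes (-0.07, adjusted p = 0.145). Treated against vehicle, the log2 difference was -0.22 ± 0.049 (adjusted p = 0.0032).

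ALDH1L2, the mitochondrial enzyme that oxidises formyl-tetrahydrofolate, was at 19.3, 18.9 and 18.2 CPM in vehicle, 20.5, 20.2 and 18.8 CPM with Poria and 19.1, 22.6 and 24.4 CPM with Atractylodis. The Atractylodis libraries at 100 and 500 µg/mL were above every other library. The slope with Atractylodis was 0.12 ± 0.025 (edgeR adjusted p = 0.00478), a call lost without its 500 µg/mL library, and the difference from Poria missed the threshold (-0.10, adjusted p = 0.112). MTHFD2, the mitochondrial dehydrogenase and cyclohydrolase, was at 85.4, 88.8 and 83.6 CPM in vehicle, with 84.2 CPM in Poria and 95.1 CPM in Atractylodis at 500 µg/mL. SHMT1 and MTHFD1, cytosolic enzymes of the cycle, and MTHFD1L, a mitochondrial formate producer, had slopes between -0.04 and 0.01 with either extract, and none passed.

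Of the 8 transporters, 3 differed in slope between the extracts. SLC3A2 (ENSG00000168003), the heavy chain shared by several amino acid exchangers, was at 135, 141 and 139.5 CPM in vehicle. With Poria it was at 135, 129 and 122 CPM and with Atractylodis at 139, 143 and 174 CPM from the lowest to the highest dose. The Poria values stepped down and the Atractylodis values stepped up, with both top doses outside the vehicle range. SLC3A2 rose with Atractylodis (0.09 ± 0.02 per step, edgeR adjusted p = 0.00654, lost without its 500 µg/mL library), and the slopes differed by -0.14 ± 0.022 (adjusted p = 0.0072).

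SLC38A1 (ENSG00000111371), a sodium-coupled glutamine importer, was at 128, 119 and 126 CPM in vehicle, 125, 118 and 111 CPM with Poria and 118, 130.5 and 155 CPM with Atractylodis. SLC1A4 (ENSG00000115902), which exchanges alanine, serine and cysteine, was at 30.8, 31.4 and 33.5 CPM in vehicle, 30.4, 28.4 and 25.7 CPM with Poria and 32.1, 32 and 35.4 CPM with Atractylodis. In both, the 500 µg/mL libraries were the extremes of the 9. SLC38A1 rose with Atractylodis (0.08 ± 0.022, edgeR adjusted p = 0.0173, lost without Atractylodis 500 or vehicle replicate 2), whereas SLC1A4 fell with Poria (-0.09 ± 0.022, adjusted p = 0.0064, lost without Poria 500). The slope differences were -0.12 ± 0.025 for SLC38A1 (adjusted p = 0.0302, also lost without Poria at 100 µg/mL) and -0.13 ± 0.024 for SLC1A4 (adjusted p = 0.015).

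SLC7A5, the light chain that pairs with SLC3A2 to import leucine and other large neutral amino acids, did not follow its partner. It was at 213, 208 and 214 CPM in vehicle, 166, 153 and 163 CPM with Poria and 186, 171 and 188 CPM with Atractylodis. SLC7A1, an importer of arginine and lysine, was at 158, 150.1 and 154 CPM in vehicle, 129.9, 126 and 123 CPM with Poria and 130.0, 131 and 127 CPM with Atractylodis. Every treated library lay below every vehicle library in both genes, with most of the step present at 20 µg/mL. Treated against vehicle, the log2 difference was -0.31 ± 0.054 for SLC7A5 (edgeR adjusted p = 0.000663) and -0.27 ± 0.035 for SLC7A1 (adjusted p = 3.72e-05).

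SLC38A2, another sodium-coupled importer, was at 335, 318 and 336 CPM in vehicle and reached 360.4 CPM with Poria and 366 CPM with Atractylodis at 500 µg/mL. Its Atractylodis slope of 0.05 ± 0.017 passed narrowly (edgeR adjusted p = 0.0449), a call that leaving out any 1 vehicle library ended, as did leaving out Atractylodis at 100 or 500 µg/mL or Poria at 20 or 100 µg/mL, and scaling by RLE size factors. SLC1A5, the main glutamine exchanger, and SLC6A9, a glycine importer, ranged from 281 to 338 and 28.6 to 41 CPM in treated libraries, both overlapping vehicle, and neither had a slope that passed.

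**Figure D3:**
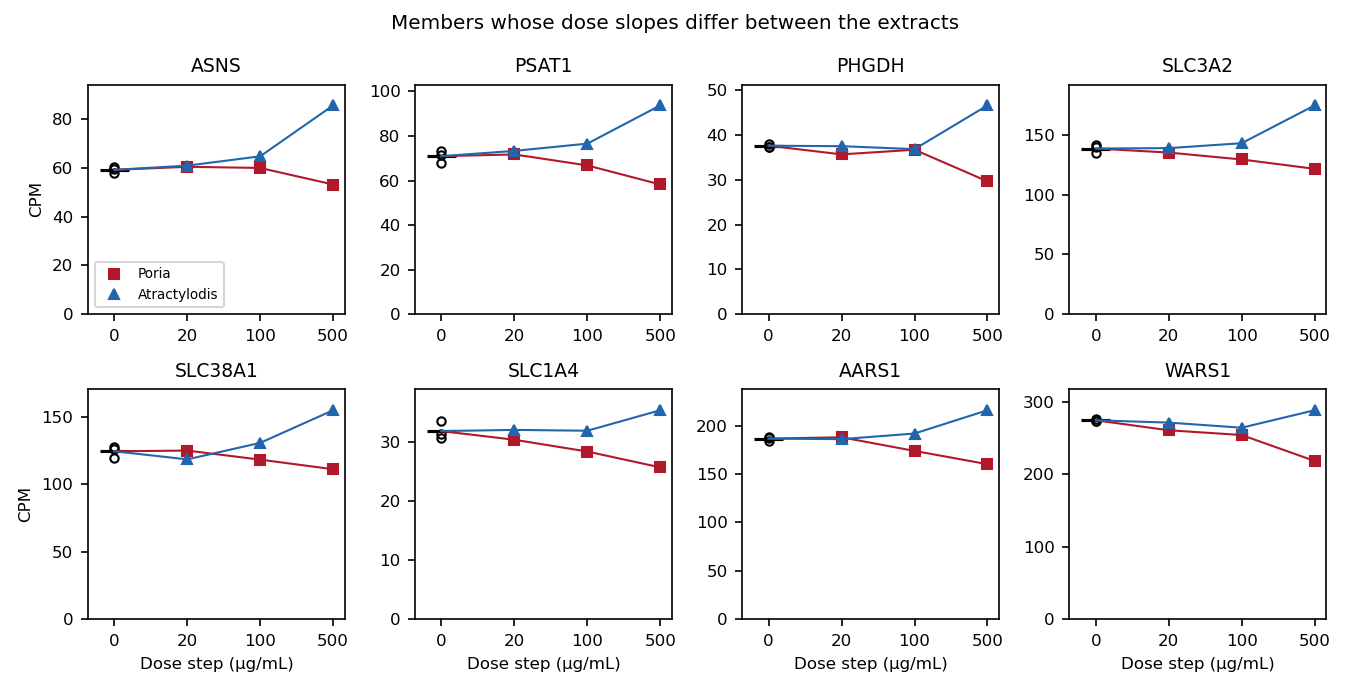
CPM (y axis, from 0) is plotted by dose step (x axis, µg/mL) for the 8 genes whose slopes differ; open circles are the 3 vehicle libraries, the short bar is their mean, and each square or triangle is 1 library. In each panel the 2 extracts separate most at 500 µg/mL, as for ASNS at 53.1 and 85.5 CPM.

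Among the 18 synthetases, which attach amino acids to their tRNAs, AARS1 and WARS1 differed in slope between the extracts. AARS1 (ENSG00000090861), for alanine, was at 187, 184 and 188 CPM in vehicle, 188, 174 and 160.2 CPM with Poria and 186, 192 and 216 CPM with Atractylodis. WARS1 (ENSG00000140105), for tryptophan and known also as an interferon-induced gene, was at 274, 276 and 274 CPM in vehicle, 261, 254 and 219 CPM with Poria and 272, 264 and 289 CPM with Atractylodis. All Poria values of WARS1 were below vehicle, while AARS1 left the vehicle range with Poria at 100 and 500 µg/mL. Both genes fell with Poria (-0.06 ± 0.018, edgeR adjusted p = 0.0268, and -0.09 ± 0.018, adjusted p = 0.00232), calls lost without Poria at 500 µg/mL. The AARS1 call was also lost when vehicle replicate 1, vehicle replicate 3 or the 100 µg/mL Poria library was left out. The slope differences were -0.11 ± 0.02 (adjusted p = 0.0128) and -0.10 ± 0.02 (adjusted p = 0.0222).

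FARSA, the catalytic subunit for phenylalanine, fell with both extracts by nearly equal slopes. It was at 111, 112 and 116 CPM in vehicle, 95.6, 88.6 and 84.5 CPM with Poria and 98.9, 87 and 84.4 CPM with Atractylodis. The 6 treated libraries lay below vehicle, lower at each dose. The slopes were -0.14 ± 0.018 (edgeR adjusted p = 0.000108) and -0.15 ± 0.019 (adjusted p = 0.000216), and their difference was 0.00 ± 0.02. FARSB, which encodes the other subunit of the same enzyme, was at 90.2 to 90.4 CPM in vehicle and 83.4 to 94.5 CPM in treated libraries, and neither of its slopes passed (adjusted p = 0.455 and 0.226).

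VARS1, for valine, and KARS1, for lysine, were also below vehicle in all treated libraries. VARS1 was at 199.5, 195 and 194 CPM in vehicle, 180.3, 173 and 189.6 CPM with Poria and 179, 174 and 167 CPM with Atractylodis. KARS1 was at 178 to 180.3 CPM in vehicle and 159 to 174 CPM in treated libraries. The Atractylodis slope call of VARS1 was lost without vehicle replicate 1 or Atractylodis at 500 µg/mL. That of KARS1 was lost without any 1 vehicle library, Poria at 100 µg/mL or Atractylodis at 100 or 500 µg/mL. Treated against vehicle, the log2 difference was -0.15 ± 0.039 for VARS1 (edgeR adjusted p = 0.00917, lost without vehicle replicate 1) and -0.11 ± 0.037 for KARS1 (adjusted p = 0.0363, lost without any 1 vehicle library, Poria at 20 µg/mL or Atractylodis at 100 or 500 µg/mL, and with no low count filter).

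LARS1, for leucine, and EPRS1, for glutamate and proline, were the 2 genes of the 41 with all treated libraries above vehicle, as 12.4% of all genes were. LARS1 was at 232, 234 and 234 CPM in vehicle, 263, 261 and 260.4 CPM with Poria and 236, 259 and 263 CPM with Atractylodis. EPRS1 was at 199, 204 and 199.9 CPM in vehicle, 219.9, 217 and 210.0 CPM with Poria and 209, 224 and 237 CPM with Atractylodis. With Poria, both genes were highest at 20 µg/mL, while with Atractylodis they climbed with dose. Treated against vehicle, LARS1 was higher by 0.14 ± 0.039 (edgeR adjusted p = 0.0122) and EPRS1 by 0.13 ± 0.041 (adjusted p = 0.0307). Both calls ended when any 1 vehicle library was left out, and that of EPRS1 also without Poria at 20 µg/mL or Atractylodis at 100 µg/mL. The LARS1 slope calls with both extracts were also lost without any 1 vehicle library or Poria at 100 µg/mL. Its Atractylodis slope was lost without Atractylodis at 100 or 500 µg/mL too, and that of EPRS1 without Atractylodis at 500 µg/mL. Over the treated Poria doses alone, the LARS1 slope was -0.01 ± 0.026.

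IARS1, for isoleucine, rose with Atractylodis, from 363 ± 2.98 CPM in vehicle (SD, n = 3) to 363, 402 and 430.2 CPM over the doses (slope 0.07 ± 0.019, edgeR adjusted p = 0.013, lost without its 500 µg/mL library). NARS1, for asparagine, rose by 0.05 ± 0.017 per step (adjusted p = 0.0332), a call lost without any 1 vehicle library or without Atractylodis at 100 or 500 µg/mL. For CARS1, GARS1, MARS1, SARS1, TARS1, YARS1, HARS1, RARS1 and QARS1, which charge cysteine, glycine, methionine, serine, threonine, tyrosine, histidine, arginine and glutamine tRNAs, neither slope passed.

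**Figure D4:**
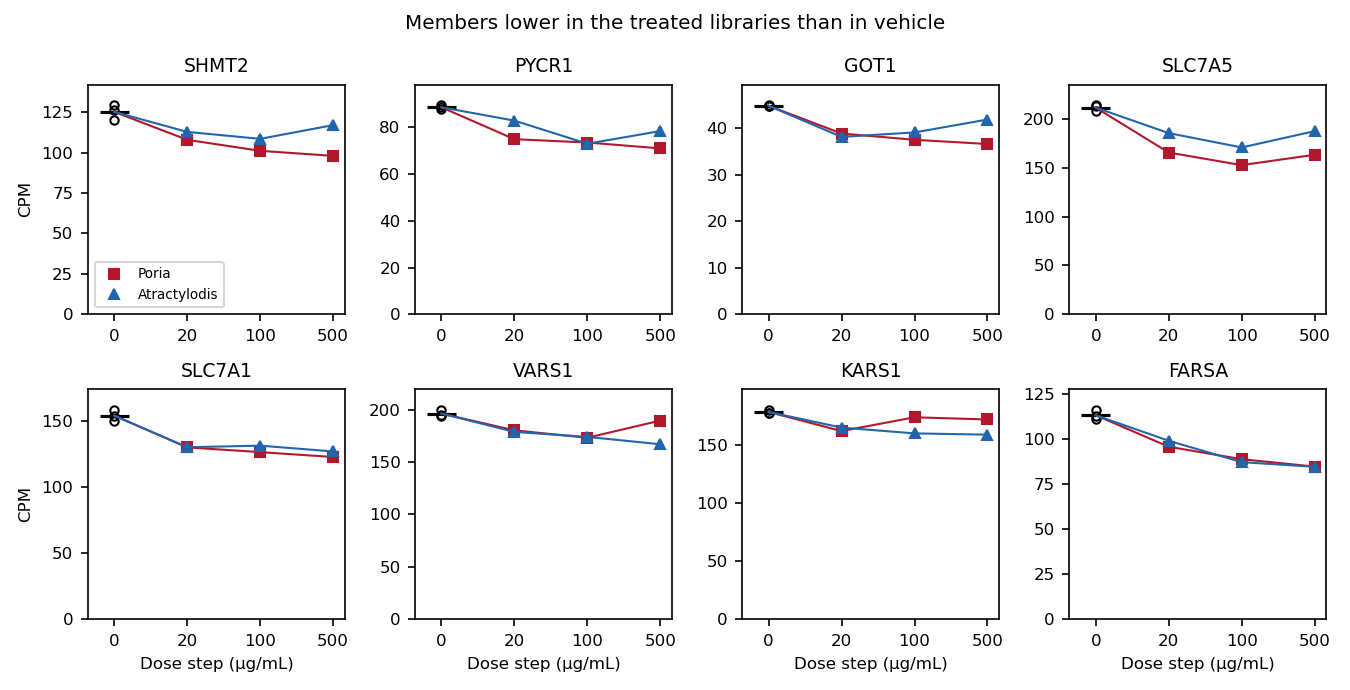
CPM (y axis, from 0) is plotted by dose step (x axis, µg/mL) for the 8 genes called lower in treated than in vehicle libraries; open circles are vehicle libraries, squares Poria and triangles Atractylodis, 1 library each. Every treated point lies below every vehicle point, and in SLC7A1 the 6 treated values span only 123 to 131 CPM.

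The extracts were also compared dose by dose. In a fit with 7 groups, where the spread of a single treated library was taken from the 3 vehicle libraries, edgeR called 0 of 41 genes at 20 µg/mL (3 with an unadjusted p under 0.05), where 1.07% of all genes were called. It called 0 at 100 µg/mL (10 unadjusted), where 0.294% were called, and with RLE size factors both counts were also 0. Without vehicle replicate 2 the counts were 2 at 20 µg/mL and 3 at 100 µg/mL, where 4.63% and 1.31% of all genes were called. At 500 µg/mL, 19 of 41 genes were lower with Poria and 1, VARS1, was higher, against 5.71% and 5.37% of all genes. The median log2 difference of the 41 was 0.01, -0.02 and -0.14 at 20, 100 and 500 µg/mL, and 0.00 over all genes at each dose.

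The 19 genes came from every role: 5 of 9 synthesis genes, 3 of 6 one-carbon genes, 4 of 8 transporters and 7 of 18 synthetases. ASNS differed by -0.69 ± 0.054 (edgeR adjusted p = 3.55e-09), PSAT1 by -0.69 ± 0.056 (adjusted p = 6.25e-09) and PHGDH by -0.65 ± 0.063 (adjusted p = 9.98e-08). SLC3A2, SLC38A1 and SLC1A4 differed by -0.52, -0.48 and -0.46, and AARS1 and WARS1 by -0.43 and -0.40. The other 11 ranged from -0.38 (ALDH1L2) to -0.17 (SARS1), and included SHMT2, MTHFD2, GOT1, GPT2, SLC7A5, EPRS1, GARS1, IARS1 and NARS1. VARS1 differed by 0.18 ± 0.046 (adjusted p = 0.00993). The response element core was present in 9 of 16 of the lower genes with a promoter entry and in 6 of 17 of the others. For the difference between the slopes over all dose steps, it was present in 5 of the 8 genes called and in 10 of the 25 others with an entry.

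In the same fit, each library at 500 µg/mL was also set against vehicle, with 1 library on the treated side. With Poria 18 genes were lower and 2 higher (17.1% and 14.4% of all genes), and with Atractylodis 7 were lower and 17 higher (16.6% and 14.4%). PYCR1, ALDH18A1, SLC7A5, SLC7A1 and FARSA were lower with both, and SLC38A2 and LARS1 higher with both. ASNS, PSAT1, PHGDH, SLC3A2, SLC38A1, SLC1A4 and AARS1 were lower with Poria and higher with Atractylodis. For ASNS the change was 0.53 ± 0.043 with Atractylodis (edgeR adjusted p = 1.35e-09) and -0.15 ± 0.046 with Poria (adjusted p = 0.0108). At 20 µg/mL, 13 genes were lower with each extract (11.4% of all genes with Poria and 10.0% with Atractylodis), and 2 were higher with Poria (8.42% of all genes) and 0 with Atractylodis (7.51%). At 100 µg/mL, Poria had 13 lower and 3 higher (14.3% and 11.2% of all genes) and Atractylodis 12 lower and 5 higher (13.9% and 11.3%).

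Slopes set by the 3 treated doses of an extract alone, apart from the step from vehicle, gave a similar division. With Atractylodis, 11 of 41 genes rose and 1 fell, where 1.50% and 2.54% of all genes did, and with Poria 0 rose and 3 fell, where 1.20% and 1.25% did. ASNS climbed by 0.25 ± 0.036 per step (edgeR adjusted p = 0.000702), SLC38A1 by 0.19 ± 0.028 (adjusted p = 0.000467) and GARS1 by 0.14 ± 0.027 (adjusted p = 0.00395). The other genes that rose were PSAT1, ALDH1L2, SLC3A2, AARS1, EPRS1, IARS1, SARS1 and YARS1, FARSA fell, and with Poria PSAT1, AARS1 and WARS1 fell. These slopes differed between the extracts in 8 genes, all lower with Poria, where 0.594% of all genes were: ASNS, PSAT1, ALDH1L2, SLC3A2, SLC38A1, AARS1, IARS1 and WARS1.

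**Figure D5:**
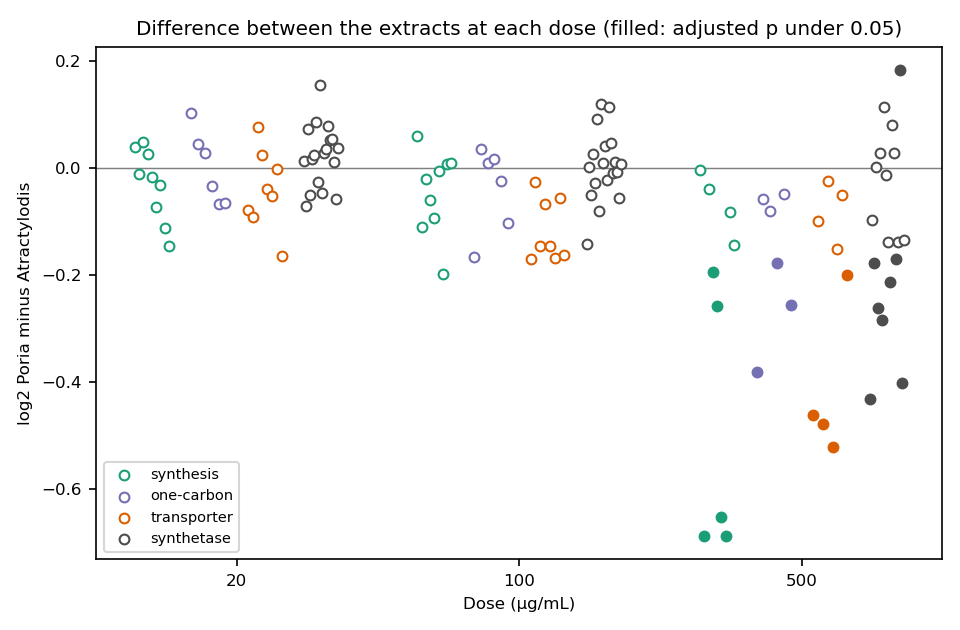
The log2 difference between Poria and Atractylodis (y axis) is shown for each of the 41 genes at each dose (x axis, µg/mL), coloured by role, with filled points for an adjusted p under 0.05. No point is filled at 20 or 100 µg/mL, and at 500 µg/mL 3 synthesis genes lie near -0.69 to -0.65.

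The rest of the ATF4 pathway was read from a list of 22 genes, all tested, that excludes the 41. It holds ATF4, the eIF2 kinases EIF2AK1 to EIF2AK4 with their substrate EIF2S1, the eIF2 phosphatase subunits, and genes regulated with or by ATF4. With Poria 2 rose and 6 fell (9.16% and 11.6% of all genes did), with Atractylodis 5 rose and 1 fell (8.49% and 10.5%), and the slopes differed in 4, all lower with Poria (0.676%). The median slope difference was -0.05, beside 0.00 over all genes. ATF4 itself was at 135, 141 and 129 CPM in vehicle, 117, 113 and 102 CPM with Poria and 125, 118 and 141 CPM with Atractylodis, and mRNA does not report its translation. ATF4 fell with Poria (-0.12 ± 0.026, edgeR adjusted p = 0.00449), did not pass with Atractylodis (adjusted p = 0.967), and the difference of -0.12 missed the threshold (adjusted p = 0.0558).

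DDIT3, a transcription factor of the stress response also called CHOP, was at 32.6, 35.8 and 33.8 CPM in vehicle, 27.1, 22.2 and 19 CPM with Poria and 30.5, 27.9 and 36.1 CPM with Atractylodis, and its slopes differed by -0.26 ± 0.039 (edgeR adjusted p = 0.0113). CHAC1, which degrades glutathione, NUPR1, a stress-induced nuclear protein, and DDIT4, an inhibitor of mTORC1, differed by -0.26, -0.27 and -0.15. TRIB3, a pseudokinase that restrains ATF4, rose with Atractylodis by 0.11 ± 0.031 (adjusted p = 0.0236), while its difference between the extracts missed the threshold (adjusted p = 0.0714). XPOT, which exports tRNA from the nucleus, rose with Atractylodis by 0.07 ± 0.017 (adjusted p = 0.0097). EIF4EBP1, a repressor of cap-dependent translation, fell with both extracts, with slopes of -0.15 and -0.12, and PPP1R15A, which directs dephosphorylation of eIF2, was lower in treated than in vehicle libraries (log2 difference -0.43 ± 0.06, adjusted p = 0.00017). SESN2, a leucine sensor, had slopes of -0.10 and 0.00 that did not pass.

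The mitochondrial synthetases charge tRNA for translation inside mitochondria. For these and the lists that follow, the shares of all genes are 9.16% higher and 11.6% lower with Poria, 8.49% and 10.5% with Atractylodis, and 1.16% for the difference, so a count of 0 differences is near the background. Of 17 tested, 4 rose and 2 fell with Poria, 3 rose and 2 fell with Atractylodis, and the slopes differed in 0 by edgeR (2 with an unadjusted p under 0.05). IARS2 was at 114 to 117 CPM in vehicle and 123 to 139 CPM in treated libraries and rose with both, while CARS2 fell with both, with slopes of -0.10 and -0.09. Of 5 other cytosolic synthetase and complex genes, AIMP2, a scaffold protein of the complex, fell with both extracts, with slopes of -0.07 and -0.06, and the slopes differed in 0 (1 unadjusted). The core TGATGNAA was present in 1 of 14 mitochondrial synthetase genes with a promoter entry, beside 4.46% of all genes with an entry. It was present in 0 of 4 of the other cytosolic synthetase and complex genes and in 4 of 19 of the ATF4 list. Among the other transporters and other enzymes described below, it was present in 1 of 17 and 1 of 18.

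Of 22 other amino acid transporters, 6 rose and 5 fell with Poria, 5 rose and 3 fell with Atractylodis, and 1, SLC38A7, differed in slope. SLC7A11, the cystine importer that pairs with SLC3A2, rose with both: it was at 94.6, 94.3 and 97.1 CPM in vehicle, 108, 131 and 184 CPM with Poria and 111, 134 and 207 CPM with Atractylodis. Its values climbed at each dose of both extracts, with slopes of 0.31 ± 0.03 and 0.36 ± 0.03 (edgeR adjusted p = 0.00015 and 0.000144) that did not pass for a difference (-0.05, adjusted p = 0.612). SLC1A3, a glial glutamate importer, was at 21.1 to 22 CPM in vehicle and 25 to 27.1 CPM in treated libraries and also rose with both. SLC25A22, a mitochondrial glutamate carrier, fell with both, with slopes of -0.12 and -0.16.

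Of 22 other enzymes tested out of 24 listed, 1 rose and 4 fell with Poria, 3 rose and 1 fell with Atractylodis, and 2 differed in slope, BCAT1 and CBS. BCAT1, the cytosolic branched-chain aminotransferase, rose with Atractylodis by 0.11 ± 0.025 (adjusted p = 0.00874). PYCR3, a cytosolic relative of PYCR1, fell with both, with slopes of -0.13 and -0.08, and MAT2A, which makes S-adenosylmethionine, rose with both, with slopes of 0.09 and 0.07.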

How the data were processed

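Reads were processed by the authors with Trim Galore, STAR and RSEM on GRCh38, per the submitters' processing notes, and what they deposited are expected counts of RSEM, estimates that divide reads among similar genes. Expected counts were rounded to whole numbers. Of 279 columns, 9 were used and 270 of samples not analysed here were left out. With edgeR 4.0.16 (R 4.3.3), TMM scaling and a count filter (minimum 10, total 15), 18356 genes were tested by quasi-likelihood F tests on trend, 2-group, 7-group and within-treated designs. CPM use TMM-scaled totals, and SE is the log2 value divided by the root of F. The other lists, like the 41 genes, were chosen with earlier results of these data known, and 1 gene of the other lists is not reported here. Values are shown for up to 6 genes per role with the smallest p and all genes differing in slope, with ranges or single values for the rest, and of other lists for the up to 4 with the smallest p in each comparison. Vehicle pairs differed beyond counting noise. Chi-square per degree of freedom was 2.36 between replicates 1 and 3, and 3.2 and 3.24 for the pairs with replicate 2. Every treated library carries the number 2, so a difference tied to that number would be partly mixed with treatment, which was not tested. Named pseudogene copies held at most 0.114% of joint counts. The trend fit and the Poria slope within treated libraries were tested on simulated counts that held slopes for Poria only. The 2-group and 7-group fits and the promoter search were not tested in this way. Alternatives were RLE scaling, DESeq2 1.42.0, no filter, linear dose, GC and length offsets, and left-out libraries.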

Additional observations from a re-analysis of the deposited data

Results flagged for a closer look

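In 15 genes the slope over dose differed between the extracts by the test of the difference itself (edgeR, adjusted over all 18356 genes), which is why they are set out here. The same test called 1.16% of all genes. Without Poria at 500 µg/mL, or without Atractylodis at 500 µg/mL, it called 0 of all genes tested. Every slope difference in this section, also those of the markers, was therefore lost in both fits. Among the genes of the main account, the Poria slope minus the Atractylodis slope, in log2 per dose step, was -0.17 for ASNS, -0.18 for PSAT1 and -0.15 for PHGDH. It was -0.14 for SLC3A2, -0.12 for SLC38A1 and -0.13 for SLC1A4, and -0.11 for AARS1 and -0.10 for WARS1. In the related lists it was -0.13 for SLC38A7, an amino acid transporter of lysosomes, -0.15 for BCAT1 and -0.16 for CBS, which makes cystathionine and was named after its values were seen. Of the ATF4 list, DDIT3 and CHAC1 had a difference of -0.26 each, NUPR1 of -0.27 and DDIT4 of -0.15. Among the cell type markers, KRT18 (epithelial) had a slope difference of 0.16 ± 0.032 (edgeR adjusted p = 0.0345) and SYT1 (neuronal) one of -0.11 ± 0.026 (adjusted p = 0.0445). At 500 µg/mL the Poria minus Atractylodis difference was also called for KRT8 (0.41), SNAP25 (-0.24), CD68 (-0.27), SOX9 (-0.17) and VIM (0.16). The part of these markers was not tested.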

How the results depend on the processing

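No paired analysis was possible because the treated groups and vehicle share only replicate number 2. For the counts of genes called among the 41, dose in µg/mL in place of the dose step gave 4 for Atractylodis (main 15) and 2 for Poria (main 11), while the share of all genes called was 0.365% and 0.681% (main 19.0% and 20.8%). Leaving out each library in turn gave 3 to 18 for Atractylodis, 8 to 13 for Poria, 0 to 8 for the difference between the slopes (main 8) and 6 to 13 for treated against vehicle (main 10). The shares of all genes called were 5.67% to 23.6%, 14% to 23.3%, 0% to 1.64% and 16.3% to 29.3%, in the same order. The low values came without Atractylodis 500 (3, all lower, with 5.67% of all genes called), without either 500 library for the difference (0), and without vehicle replicate 1 (6; Atractylodis 9, as without vehicle replicate 2). Chosen after seeing the data, the fit without both libraries at 500 µg/mL called 8 for Atractylodis, all lower, and 0 for the difference (4 unadjusted). Of the 18161 genes in that fit, 1081 were called higher and 1491 lower for Atractylodis, and 0 for the difference. Without each vehicle library, Atractylodis at 20 µg/mL against vehicle gave 8 to 16 (main 13, lowest without replicate 1), and the extracts against each other 0 to 3 at 100 µg/mL and 0 to 2 at 20 µg/mL, with 3 and 2 without vehicle replicate 2. Over all genes the shares were 16% to 22.2%, 0.694% to 1.31% and 2.25% to 4.63% in the same order, highest without replicate 2. For the slopes, their difference and treated against vehicle, DESeq2, RLE scaling, GC and length offsets and no filter stayed within 1.5 times of the main counts. The single-dose and dose-by-dose counts were rerun with RLE scaling and without each vehicle library only. Slopes within the treated libraries were rerun with RLE scaling, with GC and length offsets and without each vehicle library only. RLE scaling ended the Atractylodis calls of LARS1 and SLC38A2. For single genes, 484 of 606 combinations of a call and an alternative kept the call, 122 lost it and 0 reversed. The calls of FARSA, GOT1, PYCR1, SHMT2, SLC7A1 and SLC7A5 in treated against vehicle held under every alternative run. With 1 library per dose, no treated value has a replicate check.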
